A study of Mus musculus with 16 samples.

Results

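Glutathione and NRF2 antioxidant genes are described here in macrophages taken by bronchoalveolar lavage from mice with and without bacterial pneumonia. The set holds 10 named genes, all of them among the 23159 gene symbols of the count table, and it was chosen by name: Gsr, Gclc, Gclm, Slc7a11, Gstm1, Txnrd1, Srxn1, Prdx1, Nqo1 and Nfe2l2. RNA of 16 macrophage samples was sequenced as paired reads, with 4 libraries in each of 4 groups. For the TLR3-KO injured and WT injured groups, Klebsiella pneumoniae was injected into the hypopharynx at 500 CFU per 30 µl. TLR3-KO controls and WT controls carry the treatment label "none", and the protocol names saline as the other inoculum. The time from infection to lavage, the mice's age and background strain, and the construct behind the TLR3-KO label are not given in the sources used here. The series text counts 15 samples and the table holds 16. The labels do not say that the 4 libraries of a group came from separate mice, so p-values measure the spread between these libraries, part of which may be technical.

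Glutathione is a thiol tripeptide that macrophages use to reduce peroxides and to conjugate reactive compounds. Its supply needs imported cystine, a synthetic ligase and a reductase that recycles the oxidised form with NADPH. NRF2, the transcription factor encoded by Nfe2l2, is held at a low level by KEAP1 and a cullin 3 ubiquitin ligase, and oxidants or electrophiles release it. Stabilised NRF2 pairs with small MAF proteins at antioxidant response elements and raises transcription of glutathione, thioredoxin and quinone-reducing enzymes. Alveolar macrophages meet inhaled oxygen, particles and bacteria, and make oxidants themselves during phagocytosis.

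Totals ran from 29667102 to 59640251 counts per library. Tlr3, the targeted gene, was at 0.491 ± 0.135 CPM (counts scaled to a library total of 1e+06) in TLR3-KO injured and 3.44 ± 0.85 CPM in WT injured libraries, with 0.529 ± 0.211 CPM among TLR3-KO controls against 3.48 ± 1.23 CPM among WT controls (SD, n = 4 each). The series title describes male mice, but Xist, the RNA of the inactive X chromosome in female cells, was at 42.3, 31.6, 20.3 and 0.23 CPM in the TLR3-KO controls numbered 1 to 4 and at most 0.139 CPM in the other 12 libraries. The libraries labelled TLR3-KO control 1, 2 and 3 therefore go against that title, and calls that rest on TLR3-KO controls are also given with control 4 as the only one of its group, which is then assumed to vary like the other groups. Of 13 macrophage markers 10 were in the table and none was at 0 throughout a group, with Lyz2, macrophage lysozyme, making up 84.0% of their counts. The summed CPM of that list lay between 33984 and 40328 in TLR3-KO injured, 33411 and 43077 in TLR3-KO control, 37474 and 40576 in WT injured, and 31977 and 40006 in WT control libraries. In bulk RNA, fewer cells of a type and less RNA per cell cannot be told apart.

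Promoter windows show where the letters of the antioxidant response element occur among the members. RefSeq windows (GRCm38.p6) of 250 bases before a start site were given for 8 of the 10 members. Both strands were searched for the element's core, TGACNNNGC, and for the AP-1 and MAF 7-mer TGAGTCA, and the patterns can overlap. A core match was found in at least 1 window of 4 members, Prdx1, Gclm, Nfe2l2 and Txnrd1, the last in a window of a downstream start site. The 7-mer was found in 2 members, Prdx1 and Srxn1. Among 32851 windows of the same length, 10.16% held the core and 4.46% the 7-mer. These shares count single windows, while Txnrd1 and Gstm1 each had more than 1, so they are not a like measure for the counts of members. No match was found in the windows of Gstm1, Nqo1 and Slc7a11, which says only that these letters were not in that stretch. The 4 windows that follow belong to Prdx1, Srxn1 and Gclm, whose levels followed each other across libraries, and to Nfe2l2, whose level did not. Each is printed 5′ to 3′ on the gene's strand with matches in capitals and ends before the first annotated base of the gene.
Prdx1: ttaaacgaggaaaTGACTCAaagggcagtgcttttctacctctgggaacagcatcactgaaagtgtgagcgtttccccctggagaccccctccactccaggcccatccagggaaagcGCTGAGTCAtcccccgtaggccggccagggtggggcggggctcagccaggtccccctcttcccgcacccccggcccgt
Srxn1: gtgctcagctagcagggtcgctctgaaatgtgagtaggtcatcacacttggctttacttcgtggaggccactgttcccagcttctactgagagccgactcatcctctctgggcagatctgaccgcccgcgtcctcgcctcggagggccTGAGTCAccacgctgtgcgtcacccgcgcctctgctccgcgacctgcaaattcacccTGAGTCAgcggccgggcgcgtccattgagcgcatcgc
Gclm: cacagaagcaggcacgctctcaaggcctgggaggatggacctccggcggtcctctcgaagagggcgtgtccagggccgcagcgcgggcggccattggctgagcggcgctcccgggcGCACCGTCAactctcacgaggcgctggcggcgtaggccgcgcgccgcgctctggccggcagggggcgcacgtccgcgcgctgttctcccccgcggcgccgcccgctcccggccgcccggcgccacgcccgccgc
Nfe2l2: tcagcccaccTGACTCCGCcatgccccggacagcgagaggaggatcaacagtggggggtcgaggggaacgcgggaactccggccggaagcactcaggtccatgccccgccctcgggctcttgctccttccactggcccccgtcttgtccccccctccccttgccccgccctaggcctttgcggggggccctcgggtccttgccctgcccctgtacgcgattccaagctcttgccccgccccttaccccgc
The Prdx1 stretch is chr4:116685349-116685543 on the plus strand. It holds a 7-mer at bases -237 to -231 from the RefSeq start site, and a core at -133 to -125 whose last 7 letters are a second 7-mer. The Srxn1 stretch, chr2:152105274-152105515 on the plus strand, holds 7-mers at -102 to -96 and at -45 to -39. The Gclm stretch, chr3:122245307-122245556 on the plus strand, holds 1 core at -134 to -126. The Nfe2l2 stretch, chr2:75704664-75704913 on the minus strand, holds 1 core at -240 to -232.

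The largest fold change of the set was that of Gsr, glutathione reductase, which regenerates glutathione from its oxidised form. Gsr lies at chr8:33652523-33698163 on the plus strand (GENCODE M21, mm10), 11.7 Mb from Tlr3. It was at 293, 301, 326 and 319 CPM in TLR3-KO injured, 252, 247, 560 and 465 CPM in TLR3-KO control, 609, 982, 890 and 739 CPM in WT injured, and 705, 744, 1150 and 1163 CPM in WT control libraries. Every TLR3-KO library was below every WT library of either condition.
Gsr fell 2.65-fold in TLR3-KO injured against WT injured macrophages, with a log2 fold change of -1.40 (SE 0.23) and an edgeR adjusted p of 0.0116. In controls it fell 2.61-fold in TLR3-KO against WT, with a log2 fold change of -1.38 (SE 0.229) and an edgeR adjusted p of 0.0139. The genotype differences in the 2 conditions come from different libraries, and the difference between them was -0.02 (SE 0.319) on the log2 scale. Gsr lies on the chromosome of Tlr3, and the background strain is not given. Whether the Gsr difference follows from loss of TLR3 or from DNA linked to its locus was not tested.
Gsr was the only member called in either genotype comparison. In injured macrophages 1 of 10 members was called, where 0.602% of the 12455 genes tested were called in either direction and 0.225% were called lower. In controls 1 of 10 was called, where 0.658% of all genes were called and 0.409% were called lower.
The injured call was lost without TLR3-KO injured library 1 (edgeR adjusted p = 0.0543) or library 2 (0.0524), at log2 fold changes of -1.39 and -1.40. With TLR3-KO control 4 as the only TLR3-KO control, the control difference was -1.19 with an edgeR adjusted p of 0.228, and with Xist as a covariate it was -1.18 (0.339). Both settings have less power by construction: the first has a group of 1 library, assumed to vary like the other groups, and in the second Xist nearly repeats the TLR3-KO control label. The summed epithelial markers described further on were also higher in TLR3-KO injured than in WT injured libraries (698 ± 57.9 and 370 ± 146 CPM, SD, n = 4 each), and their part in the Gsr difference was not tested.

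**Figure D1:**
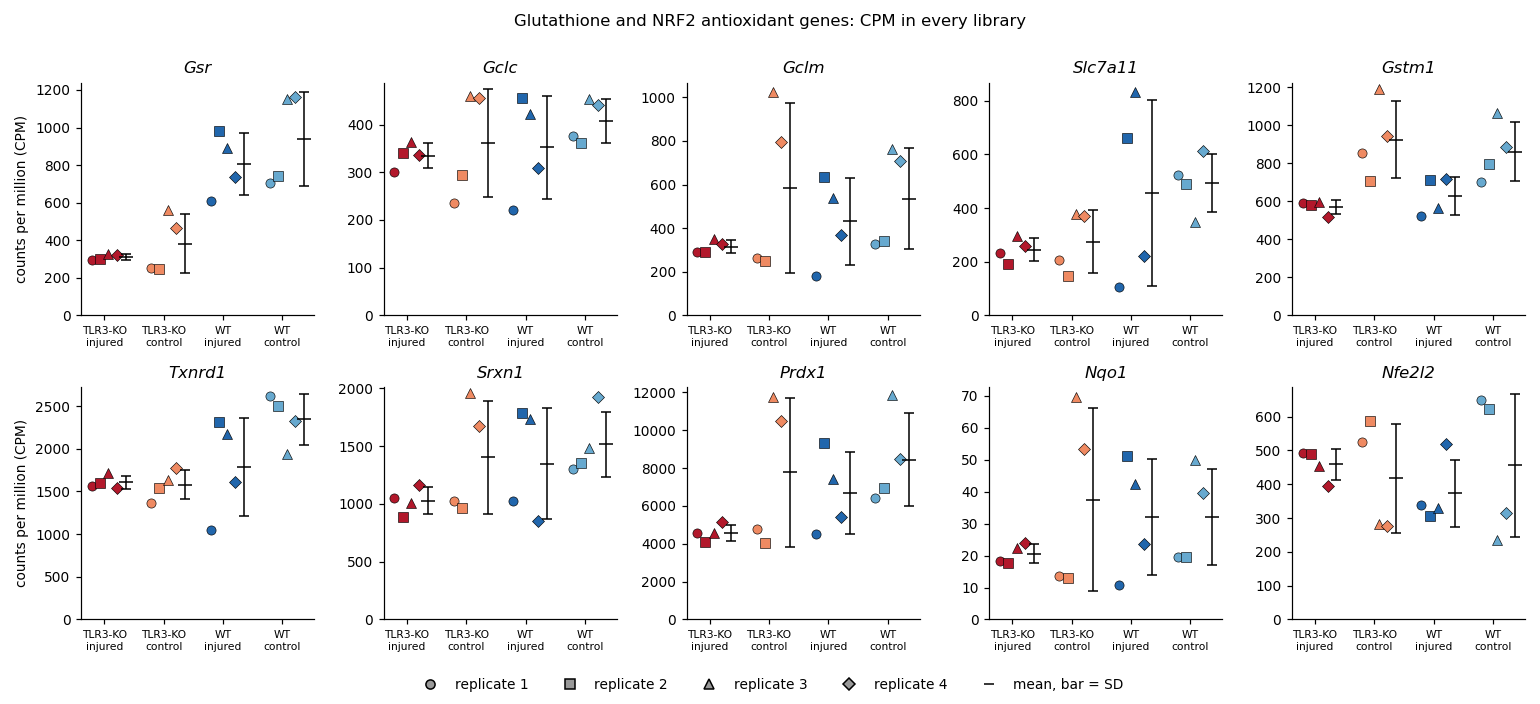
Expression of the 10 members in CPM (vertical axis, from 0) in each of the 16 libraries, with groups along the horizontal axis, one symbol per replicate number, and the mean with its SD beside each group. Gsr is at 326 CPM or less in all TLR3-KO injured libraries, from 247 to 560 CPM in TLR3-KO controls, and at 609 CPM or more in all WT libraries. Most members, Gsr among them, are spread widely within TLR3-KO controls, and most are within WT injured.

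Glutathione synthesis was represented by Gclc and Gclm, the catalytic and modifier subunits of glutamate-cysteine ligase, the rate-limiting enzyme, and by Slc7a11, the cystine-glutamate antiporter that brings in cystine. None of these genes was called in any comparison. Gclc (chr9:77754535-77794485, plus strand) was at 300, 341, 364 and 336 CPM in TLR3-KO injured and 235, 295, 461 and 455 CPM in TLR3-KO control libraries. In WT it was at 222, 457, 423 and 308 CPM in the injured and 375, 361, 455 and 442 CPM in the control libraries. Its groups overlapped in every comparison, and its log2 fold changes lay between -0.32 (SE 0.203) for WT injured against WT controls and -0.10 (SE 0.203) for TLR3-KO injured against WT injured.
Gclm (chr3:122245557-122270732, plus strand) was at 290, 290, 352 and 329 CPM in TLR3-KO injured libraries and at 264, 248, 1025 and 795 CPM in the TLR3-KO controls. In WT it was at 181, 635, 540 and 368 CPM in the injured and 329, 340, 764 and 706 CPM in the control libraries. The TLR3-KO injured libraries all lay between the low pair and the high pair of TLR3-KO controls. The log2 fold change of TLR3-KO injured against TLR3-KO controls was -0.93 (SE 0.431, edgeR adjusted p = 0.205), and that of WT injured against WT controls was -0.41 (SE 0.428, edgeR adjusted p = 0.756).
Slc7a11 (chr3:49892526-50443614, minus strand) was at 233, 192, 296 and 258 CPM in TLR3-KO injured and 205, 145, 379 and 369 CPM in TLR3-KO control libraries. In WT injured macrophages it was at 107, 663, 831 and 221 CPM, the widest spread of any member in that group, against 521, 490, 350 and 612 CPM in WT controls. Its genotype differences were among the larger ones of the set but were not called: -0.91 (SE 0.46, edgeR adjusted p = 0.338) in injured and -0.94 (SE 0.46, edgeR adjusted p = 0.269) in control macrophages. Genes on the opposite strand overlap both Gclm and Slc7a11, and the strand setting of the counting is not given in the sources used here.

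Glutathione conjugation was represented by Gstm1, a mu-class glutathione S-transferase (chr3:108012255-108017973, minus strand). Gstm1 was the only member called between injured and control macrophages. It fell in TLR3-KO, and was at 592, 578, 597 and 516 CPM in TLR3-KO injured against 853, 708, 1190 and 943 CPM in TLR3-KO control libraries, and these groups did not overlap. The log2 fold change was -0.76 (SE 0.157, edgeR adjusted p = 0.0376). So 1 of 10 members was called, where 1.09% of all genes tested were called and 0.514% were called lower.
In WT, Gstm1 was at 521, 710, 564 and 719 CPM in the injured and 702, 793, 1064 and 885 CPM in the control libraries, with WT injured 2 and 4 just above the lowest control. The log2 fold change was -0.56 (SE 0.156, edgeR adjusted p = 0.217). The difference between the TLR3-KO and the WT change was -0.20 (SE 0.221, edgeR adjusted p = 0.619), so the changes were not shown to differ between genotypes.
The TLR3-KO call was not steady. It was lost when any of 7 of the 8 libraries was left out, with edgeR adjusted p between 0.0711 and 0.108 and log2 fold changes between -0.78 and -0.62, and kept only without TLR3-KO control 2 (0.0145). With TLR3-KO control 4 as the only control of its group the value was -0.68 (edgeR adjusted p = 0.116), and with Xist as a covariate -0.69 (0.183). Gstm1 has close paralogs in a cluster on chromosome 3, so its count is uncertain where reads could be split between them.

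The thioredoxin arm was represented by Txnrd1, cytosolic thioredoxin reductase, Prdx1, a peroxiredoxin that reduces hydrogen peroxide, and Srxn1, sulfiredoxin, which repairs overoxidised peroxiredoxins. Txnrd1 (chr10:82833951-82897712, plus strand) was at 1568, 1598, 1719 and 1543 CPM in TLR3-KO injured and 1370, 1537, 1638 and 1771 CPM in TLR3-KO control libraries. It was at 1050, 2315, 2169 and 1609 CPM in WT injured and 2619, 2503, 1939 and 2327 CPM in WT control libraries. Besides Gsr, it was the only member whose TLR3-KO controls all lay below the WT controls.
Between controls, the log2 fold change of Txnrd1 was -0.66 (SE 0.186) with an edgeR adjusted p of 0.0903. Control libraries of the same number in the 2 genotypes varied together in these same data. With the number as a block in a fit of the controls alone, chosen after the data were seen, the value was -0.65 with an edgeR adjusted p of 0.0185. It was also past the threshold without WT control 3 (-0.75, edgeR adjusted p = 0.0485), where 3.28% of all genes were called. In DESeq2 it was past the threshold too (-0.68, adjusted p = 0.0149), where 6.27% of all genes were called. With TLR3-KO control 4 alone it was -0.60 (edgeR adjusted p = 0.343). With the block in the fit of all 16 libraries Txnrd1 was at -0.66 and not called (edgeR adjusted p = 0.111), and over all alternatives its value ran from -0.91 to -0.40 with adjusted p up to 0.521. In the fit of all 16 libraries 82 genes were called between controls without the block and 31 with it, and Gsr was called in both. In the fit of the controls alone 10 genes were called without the block, where Gsr was not (-1.39, edgeR adjusted p = 0.189), and 1936 with it, where Gsr was (-1.44, 0.000774). Genes on the opposite strand overlap Txnrd1 too. In injured macrophages the Txnrd1 genotype difference was -0.18 (SE 0.185, edgeR adjusted p = 0.647), and the groups overlapped.
Txnrd1 was also the member with the second lowest p between WT injured and WT control libraries, at a log2 fold change of -0.52 (SE 0.186, edgeR adjusted p = 0.332). Its value in TLR3-KO injured against TLR3-KO controls was -0.04 (SE 0.185).
Prdx1 (chr4:116685544-116700822, plus strand) was the most abundant member, with group means between 1508 and 2771 CPM per kilobase of merged exons. It was at 4553, 4112, 4562 and 5129 CPM in TLR3-KO injured and 4806, 4025, 11768 and 10502 CPM in TLR3-KO control libraries. In WT it was at 4520, 9347, 7398 and 5434 CPM in the injured and 6428, 6928, 11884 and 8492 CPM in the control libraries. The log2 fold change of injured against control was -0.81 (SE 0.297, edgeR adjusted p = 0.133) in TLR3-KO and -0.45 (SE 0.296, edgeR adjusted p = 0.593) in WT. Without TLR3-KO control 2 the TLR3-KO value passed the threshold, at -1.01 (edgeR adjusted p = 0.038). In that fit 2 of 10 members were called, where 9.83% of all genes were called.
Srxn1 (chr2:152105516-152111376, plus strand) was at 1055, 885, 1012 and 1162 CPM in TLR3-KO injured and 1022, 969, 1958 and 1671 CPM in TLR3-KO control libraries. In WT it was at 1023, 1783, 1732 and 856 CPM in the injured and 1306, 1357, 1484 and 1923 CPM in the control libraries. Its log2 fold changes were -0.50 (SE 0.234) between TLR3-KO injured and TLR3-KO controls and -0.28 (SE 0.233) between WT injured and WT controls, and neither was called.

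Nqo1, the NADPH quinone reductase often read as a marker of NRF2 activity, and Slc7a11 were the least abundant members by length, at group means of 13.2 to 24.2 and 17.6 to 35.4 CPM per kilobase. Nqo1 was the lower of the pair except in TLR3-KO controls. Nqo1 lies at chr8:107388225-107403206 on the minus strand, 61.98 Mb from Tlr3. It was at 18.4, 17.7, 22.3 and 23.9 CPM in TLR3-KO injured and 13.6, 13.1, 69.8 and 53.5 CPM in TLR3-KO control libraries. In WT it was at 10.7, 51.2, 42.5 and 23.7 CPM in injured and 19.5, 19.6, 49.9 and 39.6 CPM in control libraries. Within TLR3-KO controls, WT injured and WT controls the libraries fell into a low and a high pair, and no comparison was called.
Nfe2l2, which encodes NRF2 itself, ran the other way (chr2:75675513-75704641, minus strand). It was at 492, 491, 455 and 396 CPM in TLR3-KO injured and 526, 586, 284 and 275 CPM in TLR3-KO control libraries. In WT it was at 337, 305, 330 and 519 CPM in the injured and 648, 623, 236 and 314 CPM in the control libraries. It was the only member with a positive log2 fold change in TLR3-KO injured against TLR3-KO controls, at 0.05 (SE 0.341, edgeR adjusted p = 0.94). Txnrd1 was close to it at -0.04 (SE 0.185), and its mean was 1607 CPM in TLR3-KO injured and 1579 CPM in TLR3-KO controls. Because NRF2 is controlled mainly by protein turnover, its mRNA does not measure its activity.

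**Figure D2:**
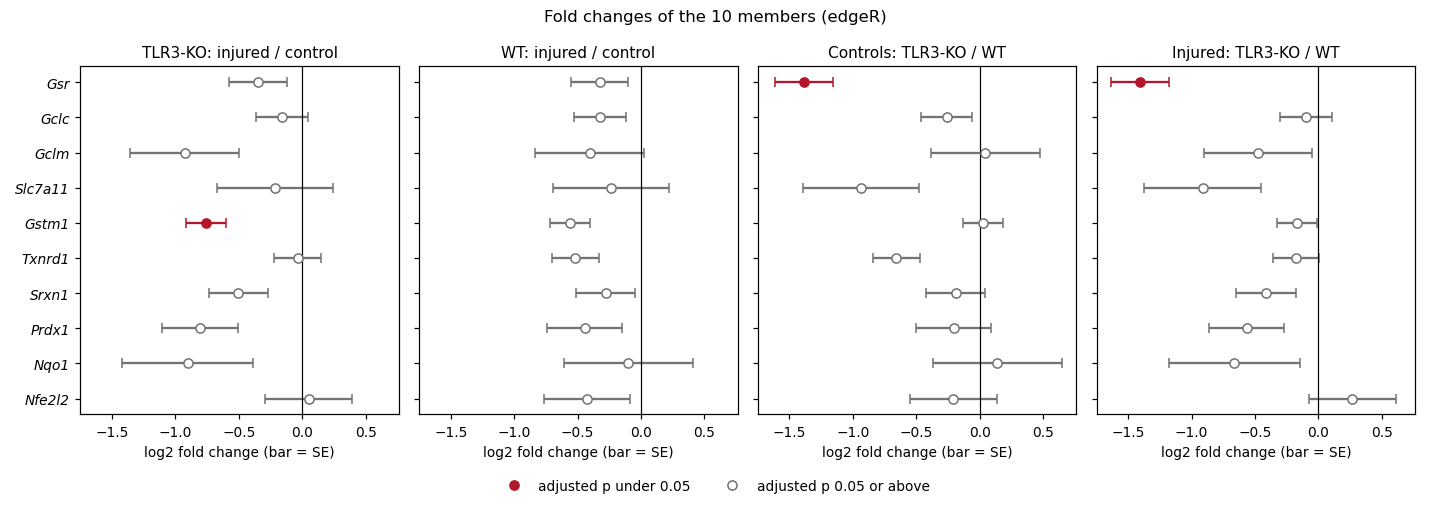
Log2 fold change of each member (points, bars show SE, horizontal axis) in the 4 comparisons, with filled red points at an edgeR adjusted p under 0.05. Gstm1 is red in TLR3-KO injured against TLR3-KO controls (-0.76) and Gsr in both genotype comparisons (-1.38 in controls and -1.40 in injured), and no point is red in WT injured against WT controls.

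Across the set, fold changes of injured against control leaned to lower values. In TLR3-KO, 9 of 10 members had a negative value, with a median log2 fold change of -0.43 where the median of all 12455 genes was -0.01. In WT, 10 of 10 were negative, with a median of -0.37 where all genes had 0.01. Of these, edgeR called 0 of 10 members in WT, as it called 0% of all genes. At an unadjusted p under 0.05 there were 2 members, Gstm1 and Txnrd1, and 1334 genes in all. DESeq2 called 1 member in WT, Gstm1 (adjusted p = 0.0354), and 181 genes in all, and limma voom called 0.
The pneumonia response differed between genotypes for 0 of 10 members in edgeR, with 0% of all genes called, and 0 members passed an unadjusted p of 0.05 where 2209 genes did. DESeq2 called 0 members and 98 genes, and voom called 0 genes. The difference of responses ranged from -0.80 (SE 0.723) for Nqo1 to 0.48 (SE 0.262) for Txnrd1 on the log2 scale.
In TLR3-KO against WT, 9 of 10 members were negative in injured macrophages (median -0.45) and 7 of 10 in controls (median -0.21). The medians over all genes were -0.01 and 0.04. With control 4 as the only TLR3-KO control, 9 of 10 TLR3-KO injured values kept a negative sign, Gclm at -1.29, Nqo1 at -1.34, Srxn1 at -0.66 and Prdx1 at -1.15. Control 4 was among the TLR3-KO controls high for these genes, so those signs follow from that choice. They do not show that the direction holds across controls, and against controls 1 and 2 most members' signs turned, as given further on. The comparisons share groups, so these counts are not independent of each other. Most members also rose and fell in the same libraries, so they do not count as separate observations.
By the plain criterion that all 4 libraries of a group lay beyond all 4 of the other, 1 member stood apart between TLR3-KO injured and TLR3-KO controls (Gstm1, lower), where 14.3% of all genes did in either direction and 3.05% were lower. None did between WT injured and WT controls, where 4.51% of genes did and 0.682% were lower. Gsr and Txnrd1 stood apart between TLR3-KO and WT controls (8.13% of genes, 2.22% lower), and Gsr between TLR3-KO and WT injured (12.3%, 3.18% lower).

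Most members varied widely within groups, and most shared the same high and low libraries. The median coefficient of variation of the members was 9.4% in TLR3-KO injured, 39.8% in TLR3-KO control, 32.2% in WT injured and 24.4% in WT control libraries. The 10 members together took between 0.858% of counts, in WT injured 1, and 1.938%, in WT control 3. In TLR3-KO controls, libraries 3 and 4 were both above libraries 1 and 2 for 9 of 10 members, and below them for Nfe2l2. For all genes tested those shares were 39.9% above and 23.0% below. In WT controls, libraries 3 and 4 were above 1 and 2 for 7 of 10 members and below for 2, Txnrd1 and Nfe2l2, where 43.8% of all genes were above and 23.3% below. In WT injured macrophages libraries 2 and 3 were above libraries 1 and 4 for Gsr, Gclc, Gclm, Slc7a11, Txnrd1, Srxn1, Prdx1 and Nqo1. The labels name no batch, and these numbers are only replicate numbers.
In TLR3-KO injured against TLR3-KO controls, the choice of controls set the direction of 7 of 10 members. Against controls 1 and 2 alone, the TLR3-KO injured value was 0.20 for Gsr, 0.23 for Gclc, 0.19 for Gclm, 0.51 for Nqo1, 0.033 for Txnrd1, 0.36 for Slc7a11 and -0.39 for Nfe2l2, each with the sign turned, and no member was called, where 0.654% of all genes were. Against controls 3 and 4 alone, 7 of 10 members were called, where 32.1% of all genes were called (4108). Gsr (-0.74, edgeR adjusted p = 0.00572), Gstm1 (-0.92, 0.00278), Gclm (-1.55, 0.0057), Nqo1 (-1.60, 0.013), Srxn1 (-0.84, 0.0239) and Prdx1 (-1.29, 0.00305) were lower in TLR3-KO injured, and Nfe2l2 was higher (0.70, 0.0217). In WT the sign turned for Gclm (0.18) and Nqo1 (0.52) with controls 1 and 2, and for Nfe2l2 with controls 3 and 4. Nfe2l2 was lower in WT injured macrophages against controls 1 and 2 (-0.95, edgeR adjusted p = 0.0103), and its value against controls 3 and 4 was 0.40 (0.383). With controls 1 and 2 it was 1 of 10 members called in WT, where 12.9% of all genes were called. The Gsr difference between genotypes was called with either pair of controls: -1.63 (edgeR adjusted p = 0.000553) with 1 and 2, and -1.25 (0.0227) with 3 and 4. In these fits 1.87% and 0.156% of all genes were called between TLR3-KO and WT controls.

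**Figure D3:**
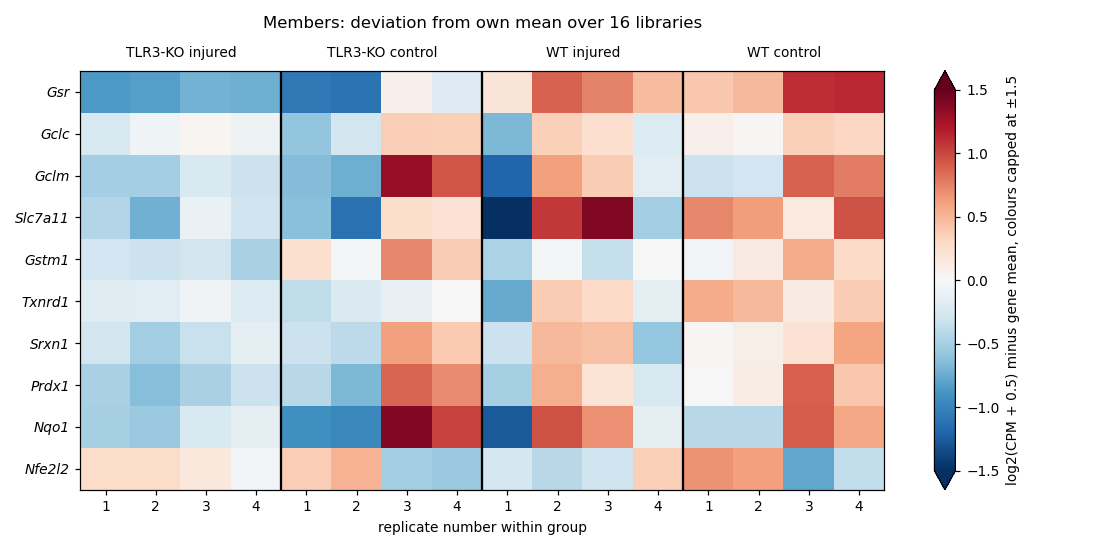
Deviation of each member (rows) in each library (columns, by group and replicate number) from its own mean over the 16 libraries, as log2(CPM + 0.5), red above and blue below the mean. Controls 3 and 4 of both genotypes and WT injured 2 and 3 are red for most members and blue for Nfe2l2, and the Gsr row is blue in 7 of the 8 TLR3-KO libraries.

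Summed markers of other cells also varied between these libraries. The summed CPM of the 13 alveolar and airway epithelial markers, all in the table, was 677, 759, 726 and 627 in TLR3-KO injured, 713, 630, 257 and 274 in TLR3-KO control, 536, 236, 261 and 449 in WT injured, and 357, 359, 181 and 212 in WT control libraries. Within TLR3-KO controls, WT injured and WT controls, the pair of libraries with the most Prdx1 and Nqo1 was the pair with the lowest sums. No other marker list separated these pairs in all of these groups. Krt19 made up 69.3% of that list's counts, while Sftpc, surfactant protein C of alveolar type II cells, lay between 2.21 and 12.8 CPM and Scgb1a1 of club cells between 1.45 and 13.1 CPM. The sum of 5 monocyte markers, 99.3% of it Fn1, was 992, 1324, 1451 and 721 CPM in TLR3-KO injured, 572, 893, 310 and 315 CPM in TLR3-KO control, 324, 580, 788 and 952 CPM in WT injured, and 773, 770, 288 and 560 CPM in WT control libraries. The 12 neutrophil markers found summed to 170 ± 40.9 CPM in TLR3-KO injured and 81.5 ± 14.7 CPM in TLR3-KO controls (SD, n = 4 each), with an exact permutation p of 0.0286, the smallest that 4 against 4 allows, and a Benjamini-Hochberg value of 0.2 over 28 such tests. In WT the sums were 174 ± 92.5 CPM for the injured and 73.3 ± 17.6 CPM for the control libraries (exact permutation p = 0.0857, adjusted 0.343). Elane was at 0 in all 4 groups, and Mpo in both injured groups. The sum of 6 erythroid markers was 122 ± 60.4 CPM in TLR3-KO injured and 495 ± 160 CPM in WT injured libraries (exact permutation p = 0.0286, adjusted 0.2), and 179 ± 212 CPM in TLR3-KO controls against 77.8 ± 58.2 CPM in WT controls. Erythroid markers in WT injured against WT controls and epithelial markers in TLR3-KO injured against WT injured macrophages had the same exact permutation p of 0.0286 (adjusted 0.2). T-cell markers summed to at most 32.8 CPM and B-cell markers to at most 40.5 CPM in any library. Whether other cells had a part in the members' differences was not tested.

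Each member's likeness to the rest is given as a description over 16 libraries that share groups and depth. Pearson's r of log2 levels with the mean of the other 9 members was 0.889 for Gclc, 0.887 for Prdx1, 0.872 for Gclm, 0.852 for Srxn1, 0.843 for Nqo1, 0.843 for Slc7a11, 0.724 for Txnrd1, 0.65 for Gsr, 0.559 for Gstm1 and -0.595 for Nfe2l2. Gsr and Gstm1, the members that were called, were thus 2 of the 3 that tracked the rest least. Among 9118 other genes, the 5 most like the members' mean profile were Ubap1 (r = 0.973), Nampt (0.973), Ppfibp2 (0.955), Abcc1 (0.947) and Procr (0.943). Abcc1 encodes an exporter of glutathione conjugates, and Nampt the rate-limiting enzyme of NAD salvage. Nampt averaged 385 CPM in TLR3-KO injured, 583 CPM in TLR3-KO control, 489 CPM in WT injured and 652 CPM in WT control libraries.

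Of 85 further genes of glutathione, thioredoxin, NADPH supply and NRF2 control, 75 were tested and 2 were called in 1 comparison each. That is 1 of 75 where 1.09% of all genes were called, and 1 of 75 where 0.658% were, both near the share over all genes. Ftl1, the ferritin light chain that stores iron, fell in TLR3-KO injured macrophages. It was at 26661, 24035, 24261 and 27605 CPM in TLR3-KO injured against 35694, 29257, 45075 and 40942 CPM in TLR3-KO control libraries, with no overlap, and its log2 fold change was -0.62 (SE 0.132, edgeR adjusted p = 0.0415). The Ftl1 call was kept without TLR3-KO control 2 (edgeR adjusted p = 0.0145) and lost without any other library of these groups (0.0656 to 0.128). With TLR3-KO control 4 as the only TLR3-KO control it was -0.63 (0.113). Ftl1 has near-identical copies in the genome, so its count is uncertain.
Cul3, the scaffold of the ubiquitin ligase that marks NRF2 for degradation, fell in TLR3-KO controls. It was at 78.6, 106, 110 and 110 CPM in TLR3-KO control against 139, 136, 132 and 131 CPM in WT control libraries, and its log2 fold change was -0.49 (SE 0.104, edgeR adjusted p = 0.0458). Its groups did not overlap. The Cul3 call was kept without TLR3-KO control 2 or WT control 3 (0.0285 and 0.0364), and lost without any of the other 6 (edgeR adjusted p between 0.0505 and 0.155) and with TLR3-KO control 4 alone (-0.47, 0.252). With the replicate block it was -0.50, with an edgeR adjusted p of 0.0613 over all libraries and 0.0233 in the controls alone. In injured macrophages Cul3 was at 133 ± 4.75 CPM in TLR3-KO libraries and 132 ± 14.8 CPM in WT libraries (SD, n = 4 each).
In TLR3-KO injured against TLR3-KO controls, 56 of 75 list genes were negative (median -0.19), with 0 called higher and 1 lower. DESeq2 called 2 higher and 10 lower of 75, where it called 549 higher and 482 lower of 12450 genes (8.28%). Without TLR3-KO control 2, edgeR called 0 higher and 11 lower of 76, where it called 694 higher and 544 lower of 12600 genes (9.83%). Against TLR3-KO controls 1 and 2 alone, it called 1 higher and 0 lower of 75, where 0.654% of all genes were called. Against controls 3 and 4 alone, it called 2 higher and 22 lower of 76, where 32.1% of all genes were called. So the calls in this list also depended on the choice of controls. In the main fit, the 20 other targets linked to NRF2 had a median of -0.38 and 14 negative values. All 6 genes of NADPH supply were negative there (median -0.18). Fth1, the ferritin heavy chain and partner of Ftl1, had -0.54 (SE 0.132, edgeR adjusted p = 0.0517), and was singled out after its values were seen. Sod1, the cytosolic superoxide dismutase, had -0.54 (SE 0.151, edgeR adjusted p = 0.0736), and Gpx3, a glutathione peroxidase, -0.57 (SE 0.163, edgeR adjusted p = 0.0782).
In WT injured against WT controls 43 of 75 were negative (median -0.07) and edgeR called 0, where 11 had an unadjusted p under 0.05 (1334 of 12455 genes in all), DESeq2 called 2 and voom 0. All 6 NADPH supply genes were again negative (median -0.25). The lowest p-values belonged to G6pdx, the entry enzyme of the pentose phosphate pathway (-0.53, SE 0.151, edgeR adjusted p = 0.227), Gpx3 (-0.56, SE 0.165, edgeR adjusted p = 0.235) and Pgd, a later NADPH-making enzyme of that pathway (-0.51, SE 0.16, edgeR adjusted p = 0.259).
Between TLR3-KO and WT controls, 28 of 75 were negative (median 0.12), with Cul3 the only call. Of 26 glutathione genes 21 were positive (median 0.30) and 0 were called, where 6814 of 12455 genes were positive (median 0.04). Mgst3, a microsomal glutathione S-transferase, had a value of 1.03 (SE 0.256, edgeR adjusted p = 0.0642). DESeq2 called 4 list genes here, where it called 6.27% of all genes. With the number block in the controls alone, 12 list genes of 73 tested were called higher and 5 lower, where 16.3% of all genes were called, and with the block in the fit of all libraries 0 of 75 were.
Between TLR3-KO and WT injured macrophages, 45 of 75 were negative (median -0.10), edgeR called 0 and DESeq2 and voom called 0, and 5 had an unadjusted p under 0.05 (1998 of 12455 genes in all). The lowest p-values belonged to Sod1 (-0.42, SE 0.151, edgeR adjusted p = 0.216), Glrx, glutaredoxin (0.40, SE 0.178, edgeR adjusted p = 0.289) and Blvrb, biliverdin reductase B (-0.91, SE 0.408, edgeR adjusted p = 0.296). For the difference between the genotypes' responses, edgeR, DESeq2 and voom each called 0 of 75, and 11 had an unadjusted p under 0.05 (2209 of 12455 genes in all). Sod1 was at -0.71 (SE 0.213), Cul3 at 0.47 (SE 0.147) and Mgst3 at -1.04 (SE 0.36), each at an edgeR adjusted p of 0.237. Sod1 overlaps a gene on the opposite strand.

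**Figure D4:**
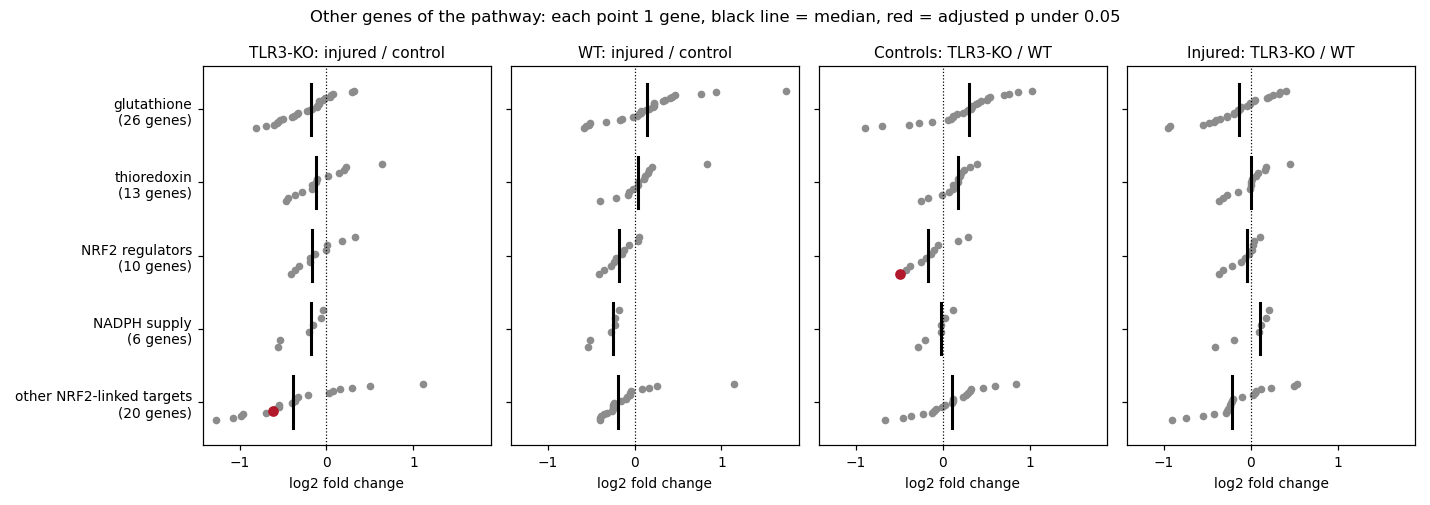
Log2 fold change (horizontal axis) of the 75 tested pathway genes that are not members, by sub-list, in the 4 comparisons, with a black line at each sub-list's median and red for an edgeR adjusted p under 0.05. Ftl1 in TLR3-KO injured against TLR3-KO controls (-0.62) and Cul3 in TLR3-KO against WT controls (-0.49) are the only red points.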

How the data were processed

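Macrophage RNA of 16 samples was measured by TruSeq mRNA sequencing with paired reads of 50 bases, per the labels' protocols. Per the submitters' processing notes, the build was mm10 and the tools were FastQC 0.11.3, TopHat2 2.0.13, Bowtie2 2.2.1, Cuffdiff 2.1.1 and Cufflinks. The table deposited by the authors holds raw counts for each gene symbol, and its name gives HTSeq as the counter. The version, strand setting and gene models of that step are not given in the sources used here. No 2 libraries of a group were copies (chi-square per degree of freedom of at least 8.0).

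Genes were kept by filterByExpr (minimum count 10), leaving 12455 and removing 10704, and all 10 members passed. TMM factors (0.896 to 1.067) scaled the counts, and edgeR 4.0.16 under R 4.3.3 fitted a robust quasi-likelihood model of 4 groups, and Benjamini-Hochberg adjustment ran across the 12455 genes (threshold 0.05). The fit was also run on simulated counts, drawn independently for each gene at a common dispersion. Those counts hold no library pattern shared across genes, so that run does not bear on the split between controls. The biological coefficient of variation was 0.238. CPM values use raw library totals. Intervals from depth were not used: Nqo1, the member with the fewest counts, had at least 414 counts in each library, so the spread between libraries sets the precision. Alternatives were RLE scaling, other filters, fits of 2 groups, a replicate block, an Xist covariate, subsets of controls, leaving out each library, limma voom 3.58.1 and DESeq2 1.42.0. The fit without a robust prior and the block within a fit of 2 groups were chosen after seeing the data. Sums of markers went through exact permutation tests, two-sided.

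The members and lists were chosen with earlier results of these data known. Named genes were the 10 members, pathway genes called in a comparison or, where none was called in it, the 3 with the lowest p-values, and the 5 genes most like the members' mean standardised profile among those averaging at least 5 CPM in some group. Replicate numbers were taken as pairs for the TLR3-KO and WT controls, an assumption from the data and not the labels. Same-numbered controls' deviations from their group means correlated at 0.478 to 0.602, and 7 of 8 libraries correlated best with their own number. TLR3-KO control 1 correlated best with WT control 2. In both genotypes, controls 3 and 4 were also apart from 1 and 2 for many genes, so pairs by single number were not shown. In the other comparisons correlations ran from -0.341 to 0.341 and the numbers were not taken as pairs. Gene positions came from GENCODE M21 and promoters from RefSeq (GRCm38.p6).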

Additional observations from a re-analysis of the deposited data

Results flagged for a closer look

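Within groups of 4 libraries, a lone library was singled out where its gap to the nearest other exceeded Dixon's critical share of the group's range for 4 values. Over 96 groups of members and named genes there were 3 such values, where chance gives about 1 in 20 groups. Nfe2l2 was at 518.8 CPM in WT injured 4 (gap 0.85 of the range), above 305 to 337 CPM in the other WT injured libraries. Cul3 was at 78.6 CPM in TLR3-KO control 1 (0.868), below 106 to 110 CPM in the other TLR3-KO controls, and without that library its difference from WT controls was -0.42 (edgeR adjusted p = 0.116). Mgst3 was at 60.6 CPM in WT control 3 (0.86), above 31.6 to 35.7 CPM in the other WT controls.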

How the results depend on the processing

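Over the members and the called list genes, 835 of the values under alternatives kept direction and side of the threshold, 45 lost the threshold, 12 gained it and 44 turned sign. Only values called in the main fit could lose it. In TLR3-KO injured against TLR3-KO controls, Gstm1 and Ftl1 each lost the call in 14 of 21 alternatives. Between TLR3-KO and WT controls, Cul3 lost it in 12 of 21 and Gsr in 3 of 21. Between injured macrophages, Gsr lost it in 2 of 21. Gsr stayed negative in all 21 alternatives of each genotype comparison, from -1.63 to -1.18 in controls and from -1.51 to -1.31 in injured macrophages. Its control call was lost in the fit of 2 groups without the block (-1.39, edgeR adjusted p = 0.189). With the replicate block in the fit of all libraries, the Gstm1 and Ftl1 calls between TLR3-KO injured and TLR3-KO controls were lost (edgeR adjusted p = 0.0713 for both). There the numbers were not taken as pairs, and 6 of 8 libraries correlated best with their own number. The same count was 0 of 8 for WT injured and WT controls and 0 of 8 for TLR3-KO and WT injured. The cause of the changes was not tested. The libraries' spread, and not their depth, limits these results.

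The number of genes called between TLR3-KO injured and TLR3-KO controls was 136. It was 44 without a filter, 33 in the fit of 2 groups, 11 with the replicate block, 0 with Xist as covariate, 6 with TLR3-KO control 4 alone, 83 and 4108 with controls 1 and 2 or 3 and 4, 1031 in DESeq2 and 0 to 1238 with a library left out. Between WT injured and WT controls 0 were called. There were 11 with RLE factors, 2 without the robust prior, 1 without a filter, 2 at 5 CPM in 3 libraries, 3 with the replicate block, 1 with Xist as covariate, 2 with TLR3-KO control 4 alone, 1631 and 63 with either pair of controls, 181 in DESeq2 and 0 to 10 with a library left out. Between TLR3-KO and WT controls 82 were called. There were 147 with RLE factors, 10 in the fit of 2 groups, 31 with the replicate block and 1936 with it in the fit of 2 groups, 5 with Xist as covariate, 11 with TLR3-KO control 4 alone, 237 and 20 with either pair of controls, 781 in DESeq2 and 17 to 466 with a library left out. Between TLR3-KO and WT injured macrophages 75 were called. There were 39 at 5 CPM in 3 libraries, 154 in the fit of 2 groups, 21 with the replicate block and 37 with it in the fit of 2 groups, 117 with TLR3-KO control 4 alone, 598 and 182 with either pair of controls, 444 in DESeq2 and 16 to 439 with a library left out. For the difference of responses 0 were called, 57 with controls 1 and 2, 98 in DESeq2 and 0 with any library left out.

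Sign turned for these values. With controls 1 and 2, TLR3-KO injured against TLR3-KO controls gave 0.20 for Gsr, 0.23 for Gclc, 0.19 for Gclm, 0.51 for Nqo1, 0.033 for Txnrd1, 0.36 for Slc7a11 and -0.39 for Nfe2l2. WT injured against WT controls gave 0.18 for Gclm and 0.52 for Nqo1, and with controls 3 and 4 it gave 0.40 for Nfe2l2. TLR3-KO against WT controls gave -0.030 for Gstm1, -0.48 for Gclm and -0.64 for Nqo1 with controls 1 and 2, and 0.027 for Srxn1 and 0.048 for Prdx1 with controls 3 and 4. With the replicate block that comparison gave -0.045 for Gclm and -0.0003 for Nqo1, and in the blocked fit of 2 groups -0.13 and -0.11. It gave -0.039 for Gstm1 and 0.15 for Prdx1 with Xist as covariate, -0.048 and 0.14 with TLR3-KO control 4 alone, and -0.13 for Gclm and -0.10 for Nqo1 in voom.

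With a library left out, TLR3-KO against WT controls ranged from -0.11 to 0.14 for Gstm1, -0.38 to 0.29 for Gclm, -0.36 to 0.43 for Nqo1, -0.48 to 0.0014 for Prdx1 and -0.43 to 0.038 for Nfe2l2. TLR3-KO injured against TLR3-KO controls ranged from -0.13 to 0.26 for Nfe2l2. WT injured against WT controls ranged from -0.43 to 0.19 for Nqo1 and -0.68 to 0.087 for Slc7a11. TLR3-KO against WT injured macrophages ranged from -0.26 to 0.038 for Gclc.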
